A study of Mus musculus with 18 samples.

Results

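The genes described here are the members of cytochrome P450 families 1 to 4 in mouse liver. A gene was taken as a member if a probe set with a single gene symbol in the platform annotation named it Cyp, followed by a family number from 1 to 4 and a subfamily letter. Of 18193 genes on the arrays, 56 were members, measured by 69 probe sets, and each was represented by its brightest probe set. Of the 56, 51 passed a filter on dim probe sets and were tested. Family 1 had 3 members, family 2 had 35, family 3 had 5 and family 4 had 13.

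Liver RNA came from C57BL/6 mice of 2 genotypes, wild type (WT, AIM+/+) and AIM-KO (AIM-/-). AIM is the secreted apoptosis inhibitor of macrophage, encoded by Cd5l. Each genotype was fed normal chow (0 weeks of a high-fat diet, HFD) or HFD for 12 or 20 weeks, which gave 6 groups of 3 arrays on an Affymetrix mouse expression array, 18 in all. All the mice share the C57BL/6 background, and the labels give neither age nor sex, so duration of feeding and age of the mice cannot be told apart. The labels call the arrays of a group biological replicates without naming separate animals, so the p-values measure the spread between these arrays.

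Cytochrome P450 enzymes are haem proteins that insert an oxygen atom into a substrate, with electrons passed from P450 reductase and cytochrome b5. Families 1 to 3 oxidise drugs, toxins, steroids, bile acids and arachidonic acid, and family 4 mainly hydroxylates fatty acids at their end. In liver, many of these genes are under the control of ligand-activated receptors: AhR for family 1, CAR for Cyp2b, PXR for Cyp3a and PPAR-alpha for Cyp4a. A further set in mouse liver differs between the sexes through the pattern of growth hormone release, with Cyp2b9, Cyp2b13, Cyp3a41 and Cyp3a44 higher in females and Cyp2d9 and Cyp4a12a higher in males.

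Some arrays stood apart. Cd5l read 702.6 to 1926.8 on the 9 WT arrays and 4 to 23.5 on the 9 AIM-KO arrays, as labelled. Xist, transcribed from the silenced X chromosome of female cells, read 2921.6 to 3049.7 on 4 arrays, namely all 3 AIM-KO arrays at 20 weeks and WT replicate 2 at 20 weeks, and 7.8 to 26.2 on the other 14. The Y-linked gene Eif2s3y went the other way, at 3.9 to 7.3 on those 4 arrays and 498.4 to 675.1 elsewhere. The 4 are called Xist-high below. In the AIM-KO mice, 20 weeks of HFD and the Xist-high state therefore cannot be told apart. WT replicate 1 at 12 weeks also differed from the other 2 arrays of its group in several P450 genes, as the values below show. Both facts touch results below, and the member calls that ended without these arrays are given beside the results. Median intensity was 15 to 21.1 per array and the correlation between arrays was 0.955 to 0.98 within groups. Precision is limited by 3 arrays a group: the standard error of a log2 change had a median of 0.22. The spread is estimated over all groups together. For genes that follow Xist, the mixed Xist levels of WT at 20 weeks therefore also widen the standard error of the 12-week comparisons.

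More P450 genes were called lower than higher in each of the 4 comparisons of HFD with chow. At 20 weeks in AIM-KO, where all HFD arrays were Xist-high, diet and Xist level cannot be told apart. A gene was called when its limma adjusted p, over all 14694 genes tested, was under 0.05. At 12 weeks in WT, 19 of 51 members were called, 1 higher and 18 lower, where 5.14% of all genes tested were called. At 12 weeks in AIM-KO, 31 were called, 6 higher and 25 lower, against a background of 18.1%. At 20 weeks in WT, 28 were called, 5 higher and 23 lower, against 14.5%. At 20 weeks in AIM-KO, 20 were called, 6 higher and 14 lower, against 6.96%; without HFD replicate 2 there were 6 higher and 7 lower, and without chow replicate 2, 5 higher and 8 lower. The share of all genes called lower was smaller than the share called higher in each comparison, at 1.63%, 6.78%, 5.77% and 2.67% lower in the order just given, and 3.52%, 11.4%, 8.72% and 4.29% higher. The median log2 change of the 51 members was -0.39, -0.5, -0.41 and -0.32, and that of all genes was 0, 0.04, -0.01 and 0.04. A count of 15 members was called in no diet comparison, and 11 were called in all 4, where the comparisons of one genotype share their chow arrays. The matching shares of all genes were not counted, and the share called in all 4 can be at most the 5.14% called at 12 weeks in WT. The 3 HFD arrays and the 3 chow arrays did not overlap for 29, 42, 30 and 28 of the 51 members in the same order, against 23.9%, 34.8%, 29.1% and 24% of all genes.

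**Figure D1:**
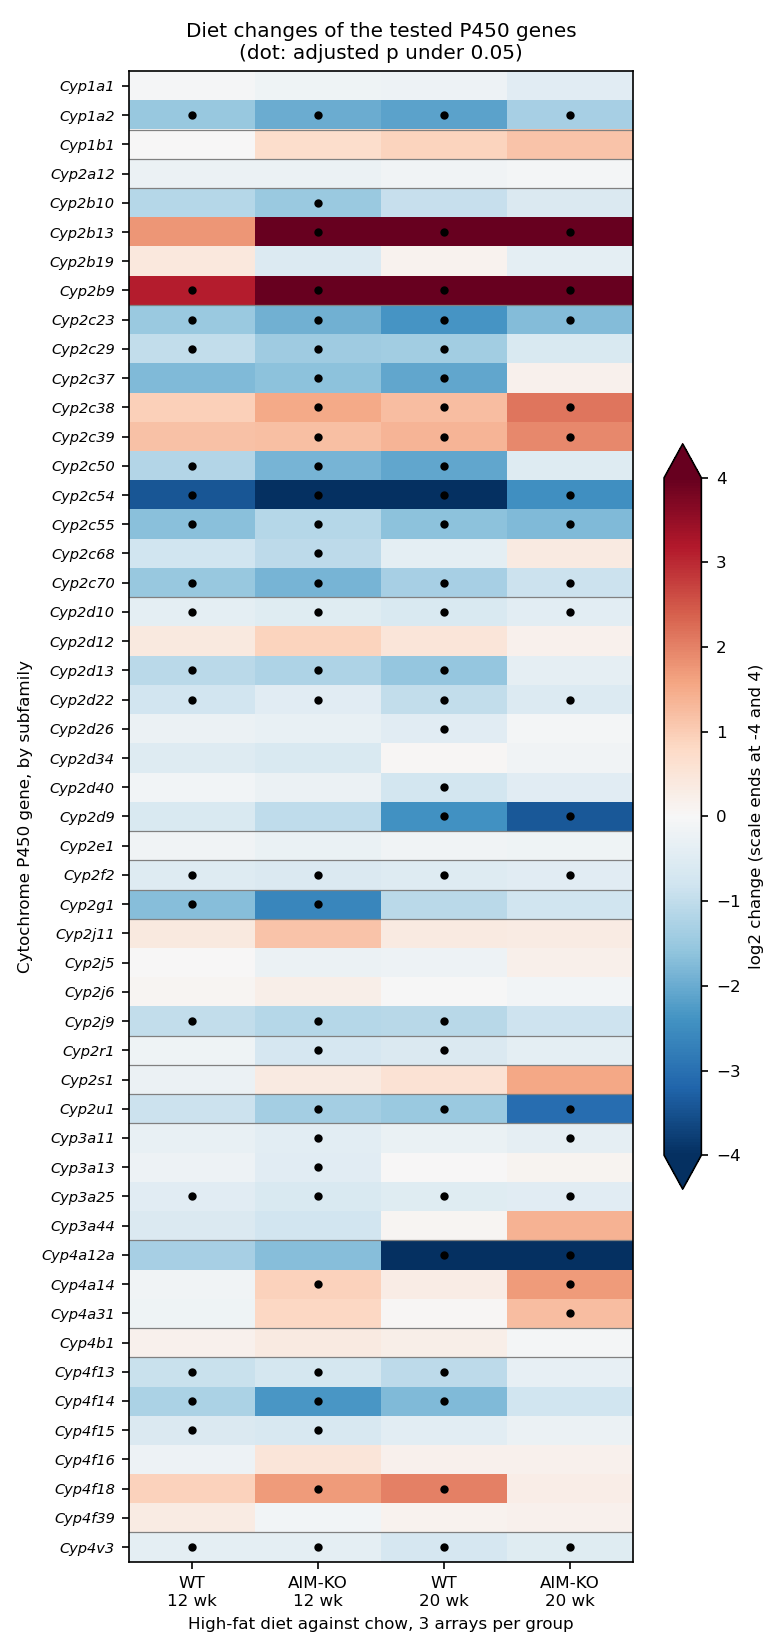
Log2 change of the 51 tested P450 genes (rows, by subfamily) for HFD against chow in each genotype and at each duration (columns, 3 arrays per group). Blue is lower and red is higher, the colour scale ends at -4 and 4, and a dot marks an adjusted p under 0.05. Most dots lie on blue cells, and Cyp2b9, Cyp2b13, Cyp2c38 and Cyp2c39 are red in every column.

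Fewer hepatocytes and less RNA per hepatocyte cannot be told apart in whole liver. Of 8 tested hepatocyte markers, including albumin and fibrinogen genes, 1, 6, 5 and 0 were lower at 12 weeks in WT, 12 weeks in AIM-KO, 20 weeks in WT and 20 weeks in AIM-KO, and none was higher. The summed intensity of these 8 was 53135.4 to 64297.1 on WT chow arrays, 45674.8 to 56076.4 at 12 weeks and 46879.3 to 52600.5 at 20 weeks. In AIM-KO it was 57084.7 to 59830.6, 42307.1 to 44632.9 and 47090.4 to 52521.6. Their median log2 change was -0.23, -0.44, -0.37 and -0.21. The part of this shift in the P450 changes was not tested.

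The largest rises were in the Cyp2b subfamily on chromosome 7. Cyp2b9 and Cyp2b13 are testosterone hydroxylases of the female mouse liver, and Cyp2b10 is the classical target of CAR. The stretches upstream of the 3 genes are shown as a comparison of close paralogs, picked with their changes known. Whether these stretches bear on the changes of the genes was not tested. They are the plus strand of RefSeq's GRCm38.p6, 5′ to 3′, from 250 bases before the start site in the table for each gene, cut off before the earliest gene record begins. In Cyp2b9 (chr7:26173159-26173301) and Cyp2b13 (chr7:26061245-26061387) capitals mark the bases that differ between that pair. In Cyp2b10 (chr7:25897408-25897550) capitals mark bases not matched to Cyp2b9 in a global alignment.
Cyp2b9: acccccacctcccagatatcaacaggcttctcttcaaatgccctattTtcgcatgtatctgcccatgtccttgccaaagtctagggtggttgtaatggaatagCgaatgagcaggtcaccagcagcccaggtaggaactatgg
Cyp2b13: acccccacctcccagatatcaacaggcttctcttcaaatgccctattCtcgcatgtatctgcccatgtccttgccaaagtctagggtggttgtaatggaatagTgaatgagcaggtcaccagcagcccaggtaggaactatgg
Cyp2b10: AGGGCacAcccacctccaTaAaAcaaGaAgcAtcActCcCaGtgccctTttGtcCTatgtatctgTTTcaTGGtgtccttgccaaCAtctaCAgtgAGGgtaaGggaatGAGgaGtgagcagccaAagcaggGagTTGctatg
Cyp2b9 and Cyp2b13 were identical at 141 of 143 bases (98.6%), and Cyp2b10 matched Cyp2b9 at 100 of 152 aligned columns (65.8%). The probes themselves were not compared, and whether the array keeps such close paralogs apart was not tested.

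Cyp2b9 read 15, 50.8 and 36.8 on the WT chow arrays, 1651.4, 89.8 and 176.1 at 12 weeks and 846.8, 2621.9 and 1070.1 at 20 weeks. In AIM-KO it read 13.4, 19.5 and 39.1 on chow, 1363, 1516.2 and 1805.8 at 12 weeks and 2480.3, 2375.2 and 2281.6 at 20 weeks. Every HFD array lay above every chow array, WT replicate 1 at 12 weeks was the highest of its group, and the Xist-high WT array at 20 weeks was the highest of all. The log2 rise was 3.15 ± 0.7 (SE) at 12 weeks in WT (adjusted p = 0.012), 5.94 ± 0.7 in AIM-KO (adjusted p = 1.6e-05), 5.29 ± 0.7 at 20 weeks in WT (adjusted p = 6.3e-05) and 6.56 ± 0.7 in AIM-KO (adjusted p = 1.4e-05). Without WT replicate 1 the rise at 12 weeks in WT was 1.92 (adjusted p = 0.036), and that call was lost without WT chow replicate 1 (2.7, adjusted p = 0.0532). The other 3 calls of Cyp2b9 held in all 19 alternatives.

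Cyp2b13 read 8.9, 10.6 and 15.4 on WT chow arrays, 149.4, 25.1 and 25.8 at 12 weeks and 124.8, 2343.4 and 113.4 at 20 weeks. The AIM-KO arrays gave 9, 4.4 and 6.1 on chow, 108.9, 199.6 and 154.2 at 12 weeks and 2281.6, 2430.3 and 2267.8 at 20 weeks. The 4 Xist-high arrays stood above 2200, and all HFD arrays stood above all chow arrays. The log2 rise was 3.99 ± 0.79 at 12 weeks in AIM-KO (adjusted p = 0.0017), 4.48 ± 0.79 at 20 weeks in WT (adjusted p = 0.00082) and 7.92 ± 0.79 at 20 weeks in AIM-KO (adjusted p = 5.4e-06). At 12 weeks in WT the change of 1.77 ± 0.79 was not called (adjusted p = 0.22). Without the Xist-high array the change at 20 weeks in WT was 3.06 (adjusted p = 0.00038), and with a term for Xist-high arrays that in AIM-KO was 3.66 (adjusted p = 0.029). Chow readings of Cyp2b13 were dim, so the size depends on the pseudocount: at 20 weeks in AIM-KO it was 6.9 with 4 times the pseudocount and 8.36 with 0.825.

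Cyp2b10 did not follow its neighbours. It read 162.8, 165.8 and 90.2 on WT chow arrays, 51.9, 66.2 and 60.3 at 12 weeks and 31.2, 121 and 88.4 at 20 weeks. Readings in AIM-KO were 107, 101.8 and 168.3 on chow, 25, 21.9 and 119.9 at 12 weeks and 73.5, 60.8 and 119.7 at 20 weeks. The 12-week WT group lay below chow without overlap and the AIM-KO groups overlapped chow through 1 array each. The fall of 1.5 on the log2 scale at 12 weeks in AIM-KO was called (adjusted p = 0.043) but lost the call in 11 of 19 alternatives, among them without either of AIM-KO HFD replicates 1 and 2 (-1.17 and -1.09, adjusted p = 0.19 and 0.21) and without any 1 of the AIM-KO chow arrays (-1.28 to -1.63, adjusted p = 0.067 to 0.14). Other probe set choices for Cyp2b10 also ended that call. The change was -1.28 with the mean of its probe sets (adjusted p = 0.17). With its brightest probe set not ending in _x_at or _s_at it was -1.07 (adjusted p = 0.43). Cyp2b19, known from skin, read 0.9 to 16.5 and was called in no comparison.

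**Figure D2:**
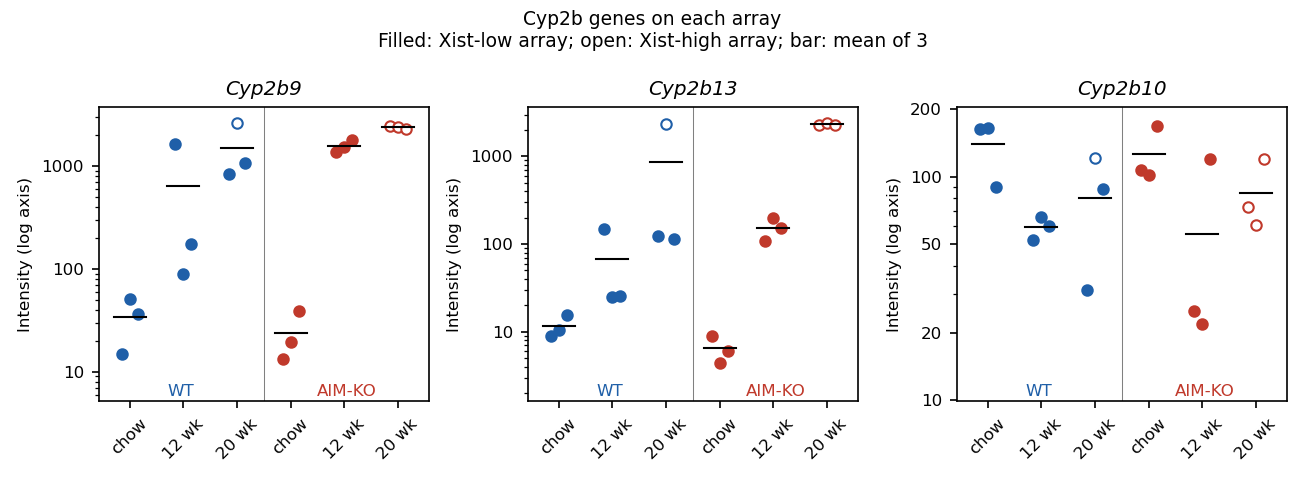
Intensity (log axis) of Cyp2b9, Cyp2b13 and Cyp2b10 on each of the 18 arrays, by genotype and diet, with open points for the Xist-high arrays and a bar at the mean of 3. Cyp2b9 and Cyp2b13 lie higher on all HFD arrays than on all chow arrays, and the 12-week WT bar of Cyp2b9 is set by the array at 1651.4.

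In family 1, only Cyp1a2 was called. Cyp1a2, the AhR-linked and pericentral enzyme that oxidises caffeine and aromatic amines, fell in all 4 comparisons. It read 4167.9, 5435.2 and 5217.1 on WT chow arrays, 1187.4, 2255.7 and 1860.2 at 12 weeks and 1031.7, 1045.1 and 1240.8 at 20 weeks. On AIM-KO arrays the gene read 3255.4, 5027.4 and 3680.5 on chow, 1040.2, 943.9 and 979.5 at 12 weeks and 1833.1, 1536.1 and 1367.6 at 20 weeks. No HFD array reached the lowest chow array. The log2 change was -1.52 ± 0.19 and -1.99 ± 0.19 at 12 weeks in WT and AIM-KO (adjusted p = 0.00011 and 2.6e-06), and -2.15 ± 0.19 and -1.32 ± 0.19 at 20 weeks (adjusted p = 9.1e-07 and 0.00031). With a term for Xist-high arrays the last of these was -1.21 and was not called (adjusted p = 0.1), and without WT replicate 1 at 12 weeks the Cyp1a2 change there was -1.26 (adjusted p = 0.00048). Cyp1a1, the most inducible AhR target, stayed dim at 10.5 to 28.8, and Cyp1b1 at 1 to 30.7, and their smallest adjusted p over the diet comparisons was 0.34, for Cyp1b1 at 20 weeks in AIM-KO.

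The Cyp2c subfamily on chromosome 19, which makes epoxides from arachidonic and linoleic acid, held many of the falls. Of the called falls of more than 1 on the log2 scale, 5 of 9, 8 of 15, 7 of 15 and 3 of 7 were Cyp2c genes (12 weeks in WT, 12 weeks in AIM-KO, 20 weeks in WT, 20 weeks in AIM-KO). Of 10 tested members, 6, 8, 7 and 4 were lower at 12 weeks in WT, 12 weeks in AIM-KO, 20 weeks in WT and 20 weeks in AIM-KO, and 0, 2, 2 and 2 were higher. Cyp2c54 had the largest falls of the subfamily. It read 3343, 4538.6 and 3966.6 on WT chow arrays, 80, 930 and 617.6 at 12 weeks and 71.1, 122.3 and 80.6 at 20 weeks. In AIM-KO it read 1846.9, 4114 and 3730.8 on chow, 76.5, 45.5 and 54.5 at 12 weeks and 880.8, 212.5 and 923.3 at 20 weeks. WT replicate 1 at 12 weeks sat with the AIM-KO arrays of that time, and the AIM-KO arrays at 20 weeks read above those at 12 weeks. The log2 change was -3.43 ± 0.65 and -5.65 ± 0.65 at 12 weeks (adjusted p = 0.0038 and 1.2e-05), and -5.41 ± 0.65 and -2.44 ± 0.65 at 20 weeks (adjusted p = 2.3e-05 and 0.028), WT before AIM-KO. Without WT replicate 1 the change at 12 weeks in WT was -2.37 (adjusted p = 0.012). The call at 20 weeks in AIM-KO was lost without AIM-KO HFD replicate 2 (-1.75, adjusted p = 0.16), without AIM-KO chow replicate 2 or 3 (-2.23 and -2.3, adjusted p = 0.1 and 0.07) and with the Xist term (-3.11, adjusted p = 0.22).

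Cyp2c23, an arachidonic acid epoxygenase, read 3020.2, 4114.3 and 3897.3 on WT chow arrays, 868.7, 1534.3 and 1632.7 at 12 weeks and 708.4, 814.4 and 611 at 20 weeks. The AIM-KO arrays gave 3857.7, 3791.8 and 2937.3 on chow, 872.9, 859 and 1040.4 at 12 weeks and 1276.3, 848.1 and 1092.2 at 20 weeks. All HFD arrays lay below all chow arrays, and the falls of 1.49, 1.92, 2.36 and 1.72 (log2, SE 0.2 each, in the order 12 weeks WT, 12 weeks AIM-KO, 20 weeks WT, 20 weeks AIM-KO) were called in all 18 alternatives run on it. Without WT replicate 1 at 12 weeks the Cyp2c23 change there was -1.2 (adjusted p = 0.00096). Cyp2c55, which hydroxylates arachidonic acid and responds to CAR and PXR, read 206.2, 149.8 and 135.6 on WT chow arrays, 71.2, 34.7 and 46.1 at 12 weeks and 53, 42.8 and 54.1 at 20 weeks. Readings in AIM-KO were 158.8, 118.5 and 202.9 on chow, 75.1, 63.8 and 68.4 at 12 weeks and 48, 43.3 and 39.9 at 20 weeks. Here too no HFD array reached a chow array. Its log2 changes were -1.66, -1.14, -1.63 and -1.77 ± 0.23, all called (adjusted p = 9.6e-05 to 0.0017), and the last lost its call with the Xist term (-1.46, adjusted p = 0.087).

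Cyp2c70, which makes the muricholic acids of the mouse bile acid pool, read 4137.5, 5589.8 and 5380.9 on WT chow arrays, 1446.3, 2034.1 and 1792.3 at 12 weeks and 2124.2, 2927.5 and 1257.6 at 20 weeks. On AIM-KO arrays the gene read 5718, 5795.4 and 4964.8 on chow, 1319.4, 1225.5 and 2159.6 at 12 weeks and 3130.7, 2651.3 and 3330.9 at 20 weeks. All HFD arrays were below all chow arrays. Its log2 changes were -1.52, -1.85, -1.33 and -0.86 ± 0.24 (adjusted p = 0.00091, 4.5e-05, 0.001 and 0.038). The last call held in 11 of 19 alternatives, and leaving out any AIM-KO HFD array or AIM-KO chow replicate 1 or 2 ended it (-0.76 to -0.93, adjusted p = 0.066 to 0.14).

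Cyp2c29, Cyp2c37 and Cyp2c50 were called lower at 12 weeks in AIM-KO and at 20 weeks in WT, and were not called at 20 weeks in AIM-KO, where all arrays were Xist-high. Cyp2c37 read 2850.9, 4057.3 and 3825.8 on WT chow arrays, 676.6, 1407 and 1174.9 at 12 weeks and 552.3, 2838.2 and 360.8 at 20 weeks. In AIM-KO it read 1452.8, 3840.7 and 3510.9 on chow, 872.6, 664.9 and 1129.7 at 12 weeks and 2938, 3089 and 3119.8 at 20 weeks. All 4 Xist-high arrays, the WT one included, lay at 2838.2 or above, where the other HFD arrays reached 1407 at most. At 12 weeks in WT its change of -1.77 ± 0.52 was not called (adjusted p = 0.0543). Its fall was 1.63 at 12 weeks in AIM-KO (adjusted p = 0.034) and 2.09 at 20 weeks in WT (adjusted p = 0.01), and was 2.98 there without the Xist-high array (adjusted p = 2.7e-05). The WT call at 20 weeks was lost without HFD replicate 1 or 3 (-1.8 and -1.49, adjusted p = 0.057 and 0.069). The AIM-KO call at 12 weeks was lost without chow replicate 2 or 3 or HFD replicate 1 or 2 (-1.38 to -1.63, adjusted p = 0.087 to 0.13).

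Cyp2c50 read 7282.2, 7957.3 and 7582.2 on WT chow arrays, 1848.2, 5363.4 and 3921.2 at 12 weeks and 1664.9, 2664 and 1267.7 at 20 weeks. The AIM-KO arrays gave 5092.3, 8098.2 and 8253.2 on chow, 1925.8, 1706.3 and 2102.9 at 12 weeks and 5227.2, 4056.9 and 5377 at 20 weeks. Its log2 changes were -1.17 ± 0.3, -1.87 ± 0.3 and -2.09 ± 0.3 for 12 weeks in WT, 12 weeks in AIM-KO and 20 weeks in WT (adjusted p = 0.027, 0.00028 and 0.00013), and -0.53 ± 0.3 for 20 weeks in AIM-KO (adjusted p = 0.35). The call at 12 weeks in WT was lost without HFD replicate 1 (-0.73, adjusted p = 0.16) and without any 1 of the chow arrays (-1.13 to -1.2, adjusted p = 0.0532 to 0.092). Cyp2c29 changed by -0.99, -1.43 and -1.38 ± 0.23 in those 3 comparisons (all called) and by -0.62 at 20 weeks in AIM-KO (adjusted p = 0.12). Its call at 12 weeks in WT was lost without chow replicate 2 (-0.93, adjusted p = 0.074) or HFD replicate 1 (-0.83, adjusted p = 0.1). Cyp2c68 was lower only at 12 weeks in AIM-KO by the call (-1.06 ± 0.25, adjusted p = 0.0057), and its change of -0.81 in WT had an adjusted p of 0.067. At 20 weeks in AIM-KO, Cyp2c68 read 4312.8, 3728.3 and 4986, above the chow arrays at 3072.8, 3653.5 and 3326.3, and the change of 0.37 was not called (adjusted p = 0.46). The Cyp2c29 arrays at 20 weeks in AIM-KO read 4540.7, 4635.3 and 4475.8, below the chow arrays at 5976, 7845 and 7358.1.

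Cyp2c38 and Cyp2c39 were the Cyp2c genes called higher. Cyp2c39 is known as a retinoic acid hydroxylase. Cyp2c38 read 222, 317.3 and 257.3 on WT chow arrays, 605.7, 415.2 and 532.9 at 12 weeks and 499.6, 1098.5 and 436.6 at 20 weeks. Readings in AIM-KO were 149.6, 229.1 and 326.7 on chow, 527.4, 643.8 and 763.2 at 12 weeks and 859.3, 996.3 and 1141.7 at 20 weeks. Every HFD array lay above every chow array. It rose by 1.5 ± 0.29 at 12 weeks in AIM-KO, 1.23 ± 0.29 at 20 weeks in WT and 2.13 ± 0.29 at 20 weeks in AIM-KO (adjusted p = 0.0014, 0.0076 and 0.00017), and the change of 0.95 ± 0.29 at 12 weeks in WT was not called (adjusted p = 0.065). Without the Xist-high array the rise at 20 weeks in WT was 0.82 (adjusted p = 0.03). With the Xist term the rise at 20 weeks in AIM-KO was 0.9 and was not called (adjusted p = 0.31).

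Cyp2c39 read 17.3, 31.2 and 15.7 on WT chow arrays, 66.4, 48.6 and 39.6 at 12 weeks and 58.2, 87.7 and 37.3 at 20 weeks. On AIM-KO arrays the gene read 13.3, 24.3 and 39.4 on chow, 56.3, 53.2 and 68.7 at 12 weeks and 74.6, 88.3 and 145.7 at 20 weeks. HFD and chow did not overlap within either genotype. Its rises were 1.21 ± 0.35, 1.36 ± 0.35 and 1.92 ± 0.35 in the comparisons in which Cyp2c38 rose (adjusted p = 0.021, 0.013 and 0.0022). The call at 12 weeks in AIM-KO was lost without chow replicate 1 or 2 or HFD replicate 1 or 3 (0.86 to 1.24, adjusted p = 0.0502 to 0.11). That at 20 weeks in WT was lost without HFD replicate 2, the Xist-high array (1.07, adjusted p = 0.056), or chow replicate 3 (1.19, adjusted p = 0.063), and that at 20 weeks in AIM-KO with the Xist term (1.06, adjusted p = 0.44). Over 300 bases around the start site in RefSeq the aligned sequences of Cyp2c38 and Cyp2c39 were 78.1% identical.

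**Figure D3:**
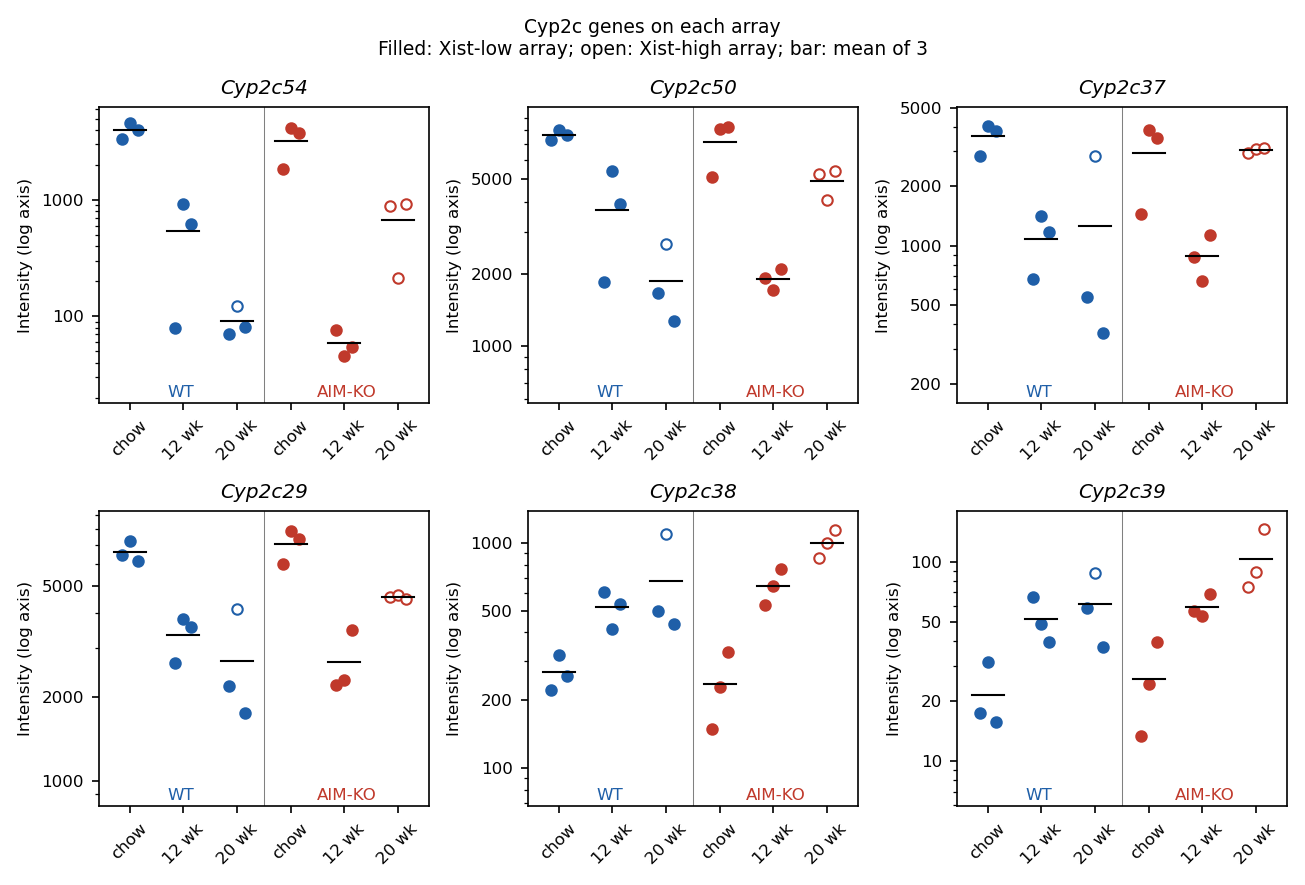
Intensity (log axis) of 6 Cyp2c genes on each array, with open points for Xist-high arrays and a bar at the mean of 3. Cyp2c54 lies low on all HFD arrays, Cyp2c37 returns to 2838.2 to 3119.8 on the Xist-high arrays, and Cyp2c38 and Cyp2c39 lie above chow on HFD arrays.

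In the Cyp2d subfamily on chromosome 15, which oxidises drugs and steroids, 3, 3, 6 and 3 of 8 members were lower at 12 weeks in WT, 12 weeks in AIM-KO, 20 weeks in WT and 20 weeks in AIM-KO, and none was higher. Cyp2d10 fell in all 4 comparisons by 0.39 to 0.61 and Cyp2d22 by 0.46 to 0.99 on the log2 scale. Cyp2d13, a transcribed pseudogene in RefSeq, fell by 1.07, 1.25 and 1.54 in the comparisons other than 20 weeks in AIM-KO. The male-biased testosterone hydroxylase Cyp2d9 read 5694.7, 6964.7 and 6385 on WT chow arrays, 2884.6, 4975.2 and 4899.1 at 12 weeks and 2027, 275.7 and 2948.1 at 20 weeks. In AIM-KO it read 4381.3, 6198 and 6246.4 on chow, 2965.6, 2463.1 and 2783.6 at 12 weeks and 597.9, 441.7 and 561 at 20 weeks. The 4 Xist-high arrays were the 4 lowest, and the HFD and chow groups did not overlap. It was called only at 20 weeks, with a log2 change of -2.42 ± 0.53 in WT (adjusted p = 0.0044) and -3.38 ± 0.53 in AIM-KO (adjusted p = 0.00055). The SE takes in WT at 20 weeks, whose arrays differed in Xist level, so the lack of a call at 12 weeks does not show an unchanged level. Without the Xist-high array Cyp2d9 fell by 1.37 in WT at 20 weeks (adjusted p = 0.00038), and with the Xist term its change in AIM-KO was -0.25 (adjusted p = 0.81). A fit of only the groups compared lost the WT call of Cyp2d9 at 20 weeks (-2.42, adjusted p = 0.0523). Cyp2d26 and Cyp2d40 fell at 20 weeks in WT alone by the call (-0.46 and -0.73), and Cyp2d12 and Cyp2d34 were called in no comparison. Several of the small changes hung on single arrays. At 12 weeks in WT, Cyp2d10 lost its call without chow replicate 2 or 3 or HFD replicate 1 (-0.31 to -0.38, adjusted p = 0.1 to 0.16) and Cyp2d13 without these or HFD replicate 2 (-0.86 to -1.04, adjusted p = 0.099 to 0.21). In AIM-KO, Cyp2d22 lost it at 12 weeks without chow replicate 2 or HFD replicate 1 or 2 (-0.34 to -0.47, adjusted p = 0.063 to 0.13) and at 20 weeks without chow or HFD replicate 2 (-0.44 and -0.52, adjusted p = 0.094 and 0.077). Cyp2d10 lost it at 20 weeks in AIM-KO without chow replicate 2 or 3 or HFD replicate 2 (-0.36 to -0.38, adjusted p = 0.0517 to 0.093) and with the Xist term (-0.43, adjusted p = 0.29). At 20 weeks in WT, Cyp2d26 lost it without HFD replicate 1 (-0.36, adjusted p = 0.067) and Cyp2d40 without chow or HFD replicate 3 (-0.62 and -0.67, adjusted p = 0.084 and 0.06).

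Among the small subfamilies of family 2, Cyp2e1, the ethanol-oxidising enzyme of pericentral hepatocytes, was bright at 7238.4 to 11204.2 and was called nowhere, with log2 changes of -0.13 to -0.28. Cyp2f2, a naphthalene oxidase of periportal hepatocytes, fell in all 4 comparisons by 0.51, 0.57, 0.53 and 0.44 (SE 0.1, adjusted p = 0.00067 to 0.011), with 5601.5 to 6832 on all chow arrays and 3898 to 4922.2 on all HFD arrays. Its call at 20 weeks in AIM-KO was lost without HFD replicate 2 (-0.36, adjusted p = 0.079) and with the Xist term (-0.39, adjusted p = 0.33). Cyp2g1, best known from olfactory tissue, read 33.1, 62.4 and 66.1 on WT chow arrays and 14.9, 15.4 and 11.2 at 12 weeks. The AIM-KO arrays gave 53.6, 81.9 and 47.1 on chow and 11, 13.4 and 1.2 at 12 weeks. At 20 weeks it read 15.7, 29.5 and 24.1 in WT and 40.9, 33.9 and 24.7 in AIM-KO, between chow and 12 weeks. Its 12-week falls of 1.69 ± 0.4 in WT and 2.61 ± 0.4 in AIM-KO were called (adjusted p = 0.017 and 0.0002). The WT call was lost without chow replicate 2 or 3 or HFD replicate 1 or 3 (-1.52 to -1.74, adjusted p = 0.057 to 0.082).

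Cyp2u1, a hydroxylase of long-chain fatty acids, read 97.6, 93.9 and 118.4 on WT chow arrays, 48.4, 56.5 and 59.7 at 12 weeks and 41.9, 21.4 and 45.5 at 20 weeks. Readings in AIM-KO were 174.2, 106.7 and 77.6 on chow, 36.7, 40.2 and 49.4 at 12 weeks and 15.6, 16.9 and 3.8 at 20 weeks. No HFD array reached any chow array, and 3 of the 4 Xist-high arrays were the lowest of all 18, with the WT one next. It fell by 1.37 at 12 weeks in AIM-KO, 1.48 at 20 weeks in WT and 3.06 at 20 weeks in AIM-KO (SE 0.35, adjusted p = 0.0098, 0.0073 and 2.5e-05). With the Xist term the last change was -2.14 (adjusted p = 0.081), and without chow replicate 1 the first was -1.06 (adjusted p = 0.057). Cyp2r1, a vitamin D 25-hydroxylase, fell by 0.66 at 12 weeks in AIM-KO and 0.57 at 20 weeks in WT. The former call was lost without HFD replicate 1 (-0.6, adjusted p = 0.056) and the latter without chow replicate 1 or HFD replicate 3 (-0.4 and -0.41, adjusted p = 0.16 each). Of the Cyp2j epoxygenases, Cyp2j9 fell by 1, 1.15 and 1.11 in the comparisons other than 20 weeks in AIM-KO, and Cyp2j5, Cyp2j6 and Cyp2j11 were called in none, with a smallest adjusted p of 0.22. The 12-week WT call of Cyp2j9 was lost without any 1 of the 6 arrays compared (-0.78 to -1.12, adjusted p = 0.056 to 0.22), that in AIM-KO without chow replicate 1 (-0.76, adjusted p = 0.0515) and the 20-week WT call without chow replicate 2 or HFD replicate 1 (-0.9 each, adjusted p = 0.081 and 0.076). Cyp2a12 and Cyp2s1 were not called either, with smallest adjusted p of 0.14 and 0.09.

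Of 4 tested Cyp3a genes on chromosome 5, which oxidise drugs, steroids and bile acids and include PXR targets, 1, 3, 1 and 2 were called lower at 12 weeks in WT, 12 weeks in AIM-KO, 20 weeks in WT and 20 weeks in AIM-KO, and none higher. Cyp3a25 read 6877.8, 7699.4 and 7446.4 on WT chow arrays, 5594.9, 5482.4 and 5076.9 at 12 weeks and 5169.2, 5781.2 and 4821 at 20 weeks. On AIM-KO arrays the gene read 7785.3, 7863.1 and 7385.9 on chow, 5024.8, 4663.2 and 5340 at 12 weeks and 5426, 5590.1 and 5808.2 at 20 weeks. The groups did not overlap, and its log2 changes of -0.45, -0.62, -0.48 and -0.45 ± 0.09 were all called (adjusted p = 0.0001 to 0.0049), the last not under quantile normalization (-0.29, adjusted p = 0.063). Cyp3a11, the main PXR target, read 8865.8, 11432.9 and 10773.1 on WT chow arrays, 7967.5, 8746 and 8229.4 at 12 weeks and 8580.3, 7904.3 and 9021.1 at 20 weeks. In AIM-KO it read 9580.2, 10387.9 and 11187 on chow, 8310.5, 7603 and 7554.6 at 12 weeks and 8333.8, 7779.2 and 8266.9 at 20 weeks. Of its changes of -0.31, -0.41, -0.28 and -0.35 ± 0.1, those in AIM-KO were called (adjusted p = 0.0069 and 0.037), and both calls were lost under quantile normalization (-0.12 and -0.18, adjusted p = 0.27 and 0.15). The call at 20 weeks held in 10 of 19 alternatives, and leaving out any AIM-KO HFD array or AIM-KO chow replicate 2 or 3 ended it (-0.3 to -0.37, adjusted p = 0.081 to 0.13), as did the Xist term (-0.2, adjusted p = 0.65).

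Cyp3a13 read 1391.6, 1407.1 and 1475.7 on AIM-KO chow arrays, 917.7, 1000.3 and 1206.9 at 12 weeks and 1355.1, 1641.6 and 1615.6 at 20 weeks, and in WT 1271.2, 1324.2 and 1294.9, then 963.2, 1477.9 and 1036.3, then 1206.9, 1511 and 1228.5. It was called lower only at 12 weeks in AIM-KO (-0.46 ± 0.14, adjusted p = 0.03). That call was lost without any 1 of the chow arrays or HFD replicate 1 or 2 (-0.37 to -0.48, adjusted p = 0.0541 to 0.14). Cyp3a44 read 9.1 to 99.5 and was not called, with a change of 1.39 ± 0.44 at 20 weeks in AIM-KO (adjusted p = 0.064).

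Windows from 250 bases before to 50 after a start site, 1 per gene (the start site listed at the top of its entry), were searched on both strands for motifs of factors known to act on P450 genes, among them the core motif CAAAGTCCA of HNF4A, a nuclear receptor that drives many liver genes. RefSeq (GRCm38.p6) held windows for 43 of the 56 members, and 5 of the 43 (11.6%) held the core, against 0.477% of all 27025 windows. These were Cyp2c65, Cyp2c68, Cyp2c70, Cyp3a11 and Cyp3a16. Cyp2c70, Cyp2c68 and Cyp3a11 were called lower in at least 1 comparison, and Cyp2c65 and Cyp3a16 were too dim to be tested. Of the 51 members tested, 36 were called in at least 1 diet comparison, in either direction, and a link between the core and the falls was not tested. The core with 10 bases on either side, in capitals and 5′ to 3′ on the minus strand on which the genes lie, is shown for 4 of them.
Cyp3a11 (chr5:145879945-145879973): aagagagtacCAAAGTCCAgtgatgcaaa
Cyp3a16 (chr5:145469804-145469832): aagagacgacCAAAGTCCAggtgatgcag
Cyp2c68 (chr19:39741160-39741188): atcattgaaaCAAAGTCCAattggaagag
Cyp2c70 (chr19:40187332-40187360): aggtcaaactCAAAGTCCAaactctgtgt
Genes of a subfamily share sequence by descent (Cyp3a11 and Cyp3a16 were 74.8% identical over the windows), so the 5 matches are not independent. The TATA motif TATAAA was present in 17 of the 43 windows (39.5%) against 14.2% of all windows, and the AhR core GCGTG, of which Cyp1a genes are known targets, in 25.6% against 32.5%. The STAT5 motif TTCNNNGAA was in 6.98% against 8.47%, the HNF1 motif GTTAAT in 4.65% against 7.2%, and the DR1 element of PPAR and HNF4A in none, against 0.0444% of all windows. These are matches of letters and not measured binding.

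Family 4 moved in both directions. Cyp4a14, a fatty acid hydroxylase and PPAR-alpha target, read 1312.8, 1580.4 and 2262.5 on AIM-KO chow arrays, 3076.3, 2755.1 and 3738.9 at 12 weeks and 5547.6, 4917.6 and 5943 at 20 weeks. In WT it read 2664.7, 5464.9 and 3174.7 on chow, 3176.2, 3157.9 and 3383 at 12 weeks and 3631.5, 5525.8 and 4252 at 20 weeks. The AIM-KO groups were apart at each step and the WT groups overlapped. It rose in AIM-KO by 0.92 ± 0.22 and 1.7 ± 0.22 (adjusted p = 0.0071 and 0.00011), the second not called with the Xist term (1.21, adjusted p = 0.14), and the changes in WT were -0.15 and 0.29 (adjusted p = 0.78 and 0.43). Its relative Cyp4a31 read 56.8, 78.1 and 139.7 on AIM-KO chow arrays, 148.8, 146.5 and 168.4 at 12 weeks and 219.9, 156.1 and 253.8 at 20 weeks, and 98.6, 171.7 and 126.7, then 123.4, 139.3 and 88.2, then 97.6, 192.8 and 126.8 in WT. It was called only at 20 weeks in AIM-KO (1.24 ± 0.29, adjusted p = 0.014). That call was lost with the Xist term (0.46, adjusted p = 0.73) and without chow replicate 1 or 2 or HFD replicate 1 or 3 (0.95 to 1.19, adjusted p = 0.0536 to 0.073).

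Cyp4a12a, the male-biased enzyme that makes 20-HETE from arachidonic acid, read 2551, 2361.1 and 2702.9 on WT chow arrays, 348.7, 1542.8 and 1836.4 at 12 weeks and 458.3, 3.1 and 413.2 at 20 weeks. The AIM-KO arrays gave 1480.5, 2145.1 and 3162.5 on chow, 855.3, 412.6 and 832.3 at 12 weeks and 22.1, 1.7 and 23.8 at 20 weeks. It was near background on the 4 Xist-high arrays and at 348.7 or above on the other 14, and no HFD array reached a chow array of its genotype. The fitted log2 change was -4.57 ± 1.11 at 20 weeks in WT (adjusted p = 0.0091) and -7.16 ± 1.11 in AIM-KO (adjusted p = 0.00054). Against readings near background its size depends on the pseudocount, and in AIM-KO it was -6.33 with 4 times the pseudocount and -7.58 with 0.825, so it is no measured fold. It was -2.53 in WT without the Xist-high array (adjusted p = 0.012) and -1.06 in AIM-KO with the Xist term (adjusted p = 0.7). A fit of only the groups compared lost the WT call at 20 weeks (-4.57, adjusted p = 0.0537). At 12 weeks the changes of -1.34 in WT and -1.69 in AIM-KO were not called (adjusted p = 0.57 and 0.34). The SE of 1.11 takes in WT at 20 weeks, whose arrays differed in Xist level. The lack of a call at 12 weeks therefore does not show an unchanged level.

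Of the Cyp4f genes, which inactivate leukotriene B4 and hydroxylate fatty acids, Cyp4f13, Cyp4f14 and Cyp4f15 fell. Cyp4f14 read 829.9, 875.6 and 862.1 on WT chow arrays, 197.7, 458.6 and 480.3 at 12 weeks and 216, 346.8 and 209 at 20 weeks. Readings in AIM-KO were 950.2, 979 and 666.3 on chow, 174.9, 170.5 and 160.7 at 12 weeks and 643.4, 367.5 and 502.5 at 20 weeks. No HFD array reached a chow array. Its falls were 1.27 ± 0.27, 2.32 ± 0.27 and 1.76 ± 0.27 in the comparisons other than 20 weeks in AIM-KO (adjusted p = 0.009, 1.5e-05 and 0.00028), and -0.79 ± 0.27 in that one was not called (adjusted p = 0.093). Without WT replicate 1 at 12 weeks the Cyp4f14 change there was -0.86 (adjusted p = 0.0496). Cyp4f13 fell in the same 3 comparisons by 0.88, 0.7 and 1.04, and Cyp4f15 at 12 weeks only by the call, by 0.59 in WT and 0.64 in AIM-KO. Leaving out any 1 of the 6 WT arrays ended the WT call of Cyp4f15 (-0.49 to -0.64, adjusted p = 0.056 to 0.2), and leaving out chow replicate 1 or 2 the AIM-KO call (-0.5 and -0.56, adjusted p = 0.057 and 0.0523). Cyp4v3, another fatty acid hydroxylase, fell in all 4 comparisons by 0.4, 0.39, 0.68 and 0.49. Its calls were lost at 12 weeks in WT without chow replicate 2 or 3 or HFD replicate 1 or 3 (-0.27 to -0.45, adjusted p = 0.061 to 0.26), at 12 weeks in AIM-KO without chow replicate 2 or HFD replicate 1 or 2 (-0.33 to -0.37, adjusted p = 0.086 to 0.1) and at 20 weeks in AIM-KO without chow or HFD replicate 2 (-0.43 and -0.46, adjusted p = 0.065 and 0.06) or with the Xist term (-0.3, adjusted p = 0.53). The same calls of Cyp4v3 were lost with its brightest probe set not ending in _x_at or _s_at (-0.33, -0.35 and -0.34, adjusted p = 0.2, 0.095 and 0.17). Cyp4b1, Cyp4f16 and Cyp4f39 were called in none, with smallest adjusted p of 0.15, 0.27 and 0.63.

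Cyp4f18, the form that degrades leukotriene B4 in myeloid cells, was the Cyp4f gene called higher. It read 1.6, 3.2 and 1.4 on WT chow arrays, 19.3, 4 and 2.8 at 12 weeks and 24.3, 14.8 and 16.7 at 20 weeks. On AIM-KO arrays the gene read 2.3, 2.3 and 9.5 on chow, 26.4, 21.3 and 15.3 at 12 weeks and 2.3, 12.5 and 4.8 at 20 weeks. These are dim readings. The gene passed the filter through 8 HFD arrays and no chow array, so its calls rest on a chow level at background and the change has no measured size. The fitted log2 change was 1.69 ± 0.51 at 12 weeks in AIM-KO and 2.02 ± 0.51 at 20 weeks in WT (adjusted p = 0.026 and 0.011), and ran from 0.95 to 2.2 and from 1.05 to 2.77 with 4 times the pseudocount and with 0.825. The AIM-KO call was lost without chow replicate 1 or 2 or HFD replicate 1 or 2 (1.49 to 1.67, adjusted p = 0.079 to 0.1) and the WT call without HFD replicate 1 (1.84, adjusted p = 0.055). Of 9 markers of recruited macrophages and monocytes, 3, 7, 8 and 1 were higher at 12 weeks in WT, 12 weeks in AIM-KO, 20 weeks in WT and 20 weeks in AIM-KO. Their summed intensity was 643.2 to 762.3, 988.6 to 1730.1 and 1503.1 to 2187 on WT chow, 12-week and 20-week arrays, and 621.4 to 725.6, 1779.7 to 2108.9 and 732.6 to 1000.4 in AIM-KO. Their part in the Cyp4f18 result was not tested.

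The Xist-high arrays separated several P450 genes within the WT group at 20 weeks, where 1 of 3 arrays was Xist-high. A term for Xist-high arrays, which rests on that WT array, was added to the fit. With it 9 members were called at 20 weeks in AIM-KO, 2 higher and 7 lower, in place of 20. Not all of the 9 were among the 20, and the others were new calls in the lower direction. The share of all genes called with the term is not given here, so the 9 are not shown to be particular to P450 genes. Of the 20, those still called were Cyp2b9 (5.1, adjusted p = 0.048), Cyp2b13, Cyp2c23 (-2.03, adjusted p = 0.013), Cyp2c70 (-1.7, adjusted p = 0.031), Cyp2d22 (-1, adjusted p = 0.027) and Cyp3a25 (-0.66, adjusted p = 0.028). In WT at 20 weeks, 28 members were called with that term and also without the array, which for this comparison are in effect the same fit and not separate checks. Cyp2c39 lost its call in both (1.07, adjusted p = 0.055 and 0.056), so these are not the same 28 members as in the fit on all arrays without the term. A probe set shared by the female-biased Cyp3a41b and Cyp3a41a, which the single-symbol rule leaves out, read 53.6 to 151.8 on the 14 other arrays and 3785.6 to 6611.3 on the 4 Xist-high arrays, 5265.6 of them on the WT array. Of the fixed list of 12 female-biased P450 genes, 5 were tested (Cyp2b9, Cyp2b10, Cyp2b13, Cyp3a44 and Cyp4a14). At 12 weeks, where all arrays were Xist-low, 1 of the 5 was called higher in WT and none lower (3.52% and 1.63% of all genes), and 3 were called higher and 1 lower in AIM-KO (11.4% and 6.78%).

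**Figure D4:**
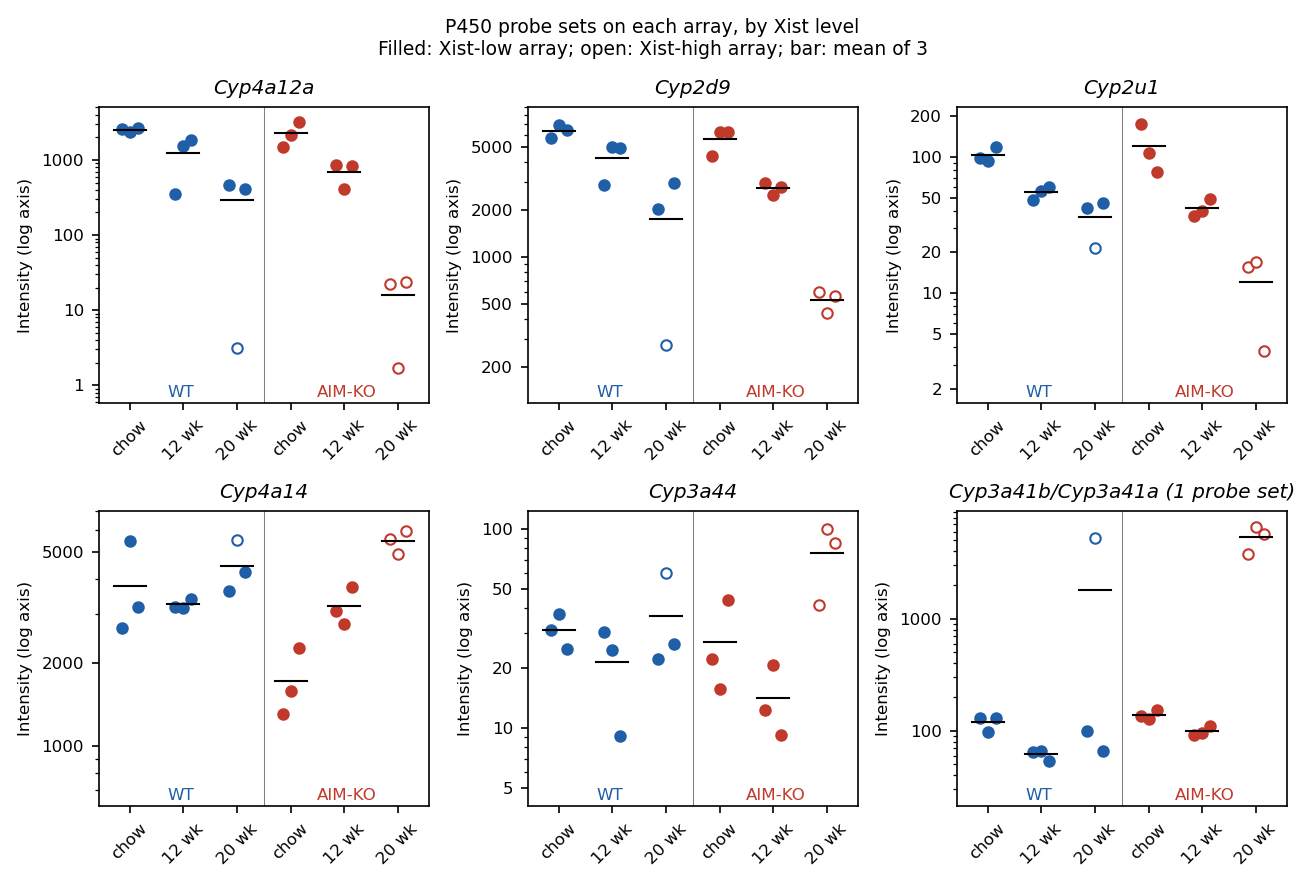
Intensity (log axis) of 5 P450 genes and the probe set shared by Cyp3a41b and Cyp3a41a on each array, with open points for Xist-high arrays and a bar at the mean of 3. Cyp4a12a and Cyp2d9 are lowest and the Cyp3a41 probe set highest on the 4 open points, while Cyp4a14 and Cyp3a44 overlap between open and filled points.

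The diet changes of the 51 members in WT and AIM-KO, which share no arrays, were alike at 12 weeks. The 19 members called in WT were all among the 31 called in AIM-KO (100% of the former, 61.3% of the latter), in the same direction. The correlation of log2 changes across the 51 genes was 0.95, against 0.6 over all genes tested, and genes are not independent replicates. At 20 weeks, 17 members were called in both, 60.7% of the WT calls and 85% of the AIM-KO calls, all in the same direction, with a correlation of 0.88 against 0.57 over all genes. The overlap of calls was not counted over all genes, so these shares are not shown to be particular to P450 genes. The calls of both genotypes use 1 estimate of the spread per gene over all groups, so they are not independent. At 20 weeks, 1 of 3 WT and all 3 AIM-KO HFD arrays were Xist-high, and no chow array was. A shared diet change and a shared change with Xist level therefore cannot be told apart at 20 weeks.

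**Figure D5:**
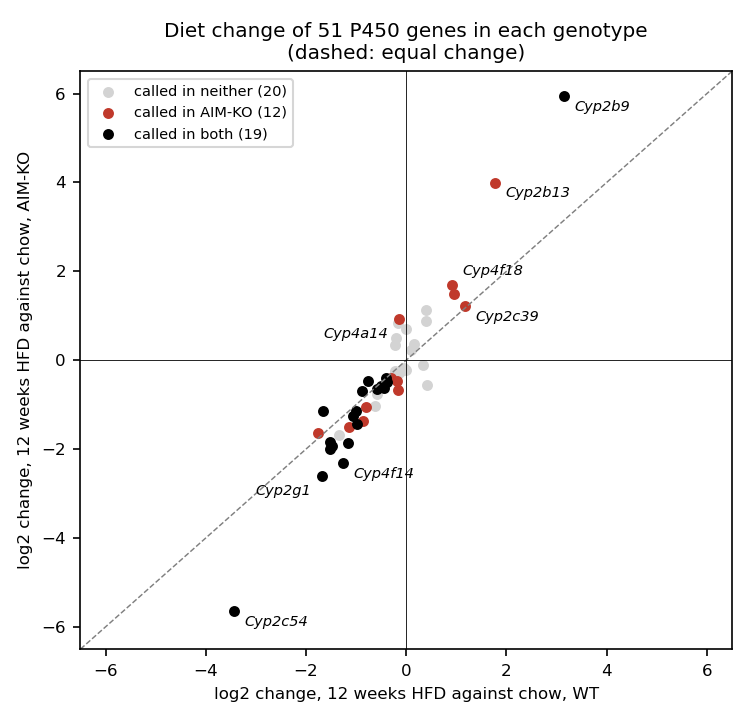
Log2 change at 12 weeks of HFD in WT (x axis) against AIM-KO (y axis) for the 51 P450 genes, with black points called in both (19), red points called in AIM-KO (12) and grey points called in neither (20). Points run along the dashed line of equal change, and Cyp2b9, Cyp2b13 and Cyp2c54 lie farther from 0 in AIM-KO than in WT.

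The comparison of AIM-KO with WT asks how loss of AIM alters these genes on each diet. By limma with adjustment over all genes, no member was called on chow, at 12 weeks or at 20 weeks, where 0.0272%, 0.0749% and 0.157% of all genes were called, 0.0204%, 0.034% and 0.129% of them lower in AIM-KO. Arrays of the 2 genotypes did not overlap for 2, 8 and 13 of the 51 members, against 11.5%, 16% and 15.7% of all genes. At an unadjusted p under 0.05 there were 1, 11 and 22 members, and 7.24%, 8.38% and 13.4% of all genes. The difference of the diet effect between genotypes was called for no member at 12 weeks (0.00681% of all genes) or 20 weeks (0% of all genes), with 5 and 20 members at an unadjusted p under 0.05 against 9.44% and 10.2% of all genes. The median 95% interval of a genotype difference reached 0.59 to either side on the log2 scale, and 0.83 for a difference of diet effects, and differed between genes. Cyp3a11 differed by 0.01 (95% interval -0.2 to 0.22) on chow, by -0.09 (-0.29 to 0.12) at 12 weeks and by -0.06 (-0.27 to 0.14) at 20 weeks.

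On chow, the largest estimate was that of Cyp4a14, at -1.1 (95% interval -1.57 to -0.63, adjusted p = 0.16) in AIM-KO, where the WT and AIM-KO arrays did not overlap. It was called without AIM-KO chow replicate 3 (-1.32, adjusted p = 0.041) and with array weights (-1.22, adjusted p = 0.02). At 12 weeks the estimates ran from -2.58 for Cyp2c54 (-3.94 to -1.22, adjusted p = 0.17) to 2.36 for Cyp2b9 (0.89 to 3.83, adjusted p = 0.27). Without WT replicate 1 at 12 weeks, 5 members were called, Cyp2b9 higher in AIM-KO (3.59, adjusted p = 0.00078) and Cyp2c54 (-3.65, adjusted p = 0.00078), Cyp4f14 (-1.46, adjusted p = 0.004), Cyp2c50 (-1.27, adjusted p = 0.024) and Cyp1a2 (-1.05, adjusted p = 0.006) lower. The 12-week diet effect then differed between genotypes for 2, Cyp2b9 (4.02, adjusted p = 0.0075) and Cyp2c54 (-3.28, adjusted p = 0.048). That array was set apart by its P450 readings, these genes among them. The adjusted p-values without it are therefore no independent support for a genotype difference. The shares of all genes called without that array are not given here. The counts of 5 and 2 are thus not shown to be particular to P450 genes.

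At 20 weeks the estimates ran from -2.83 for Cyp4a12a (-5.15 to -0.5, adjusted p = 0.26) to 2.83 for Cyp2b13 (1.17 to 4.49, adjusted p = 0.12), and the smallest adjusted p was 0.057, for Cyp2c50 at 1.45 (0.82 to 2.07). In this comparison all AIM-KO arrays and 1 of 3 WT arrays were Xist-high. Without the Xist-high WT array, so that genotype and Xist level coincided, 15 members were called, 12 higher and 3 lower in AIM-KO. The lower ones were Cyp4a12a (-4.86, adjusted p = 0.00035), Cyp2d9 (-2.2, adjusted p = 2.1e-05) and Cyp2u1 (-1.75, adjusted p = 0.0077), and Cyp2b13 (4.25, adjusted p = 1e-04) and 7 Cyp2c genes, Cyp2c37 (2.76, adjusted p = 0.00024) among them, were higher, as were Cyp2d13, Cyp2d26, Cyp2j5 and Cyp4f14. The 20-week diet effect then differed between genotypes for 10 members, 8 of them more positive in AIM-KO, with Cyp2b13 at 4.86 (adjusted p = 0.002) and Cyp4a12a at -4.63 (adjusted p = 0.012). With the Xist term no member was called. The shares of all genes called without the Xist-high WT array are not given here. The counts of 15 and 10 are thus not shown to be particular to P450 genes.

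Across the 18 arrays, the log2 levels of members fell into sets that moved alike, given here as Pearson correlations and as a description only, since the arrays share groups. Cyp4a12a was most like Cyp2d9 (0.99) and Cyp2u1 (0.83). Cyp2b9 was most like Cyp2c38 (0.92), Cyp2b13 (0.9) and Cyp2c39 (0.88). Cyp2c54 was most like Cyp4f14 (0.97), Cyp2c50 (0.96) and Cyp1a2 (0.95). Cyp2b13 and Cyp2d9 ran opposite to each other (-0.96), as did Cyp4f18 and Cyp4f14 (-0.91).

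The genes that supply or control P450 enzymes were tested in the same fit. Counts are given for 12 weeks in WT, 12 weeks in AIM-KO, 20 weeks in WT and 20 weeks in AIM-KO. Of 5 tested electron donors and their partners, 1, 2, 1 and 1 were higher and 0, 2, 0 and 0 lower; Pgrmc2, a haem-binding partner of P450 enzymes, rose in each (0.6, 0.68, 0.59 and 0.74 ± 0.12), and at 12 weeks in AIM-KO Cyb5r3 rose by 0.42 and Cyb5a and Pgrmc1 fell by 0.28 each. Of 11 genes of haem synthesis and breakdown, the ferrochelatase gene Fech alone was called, lower at 12 weeks in AIM-KO (-0.44 ± 0.11, adjusted p = 0.0074). Of 14 nuclear receptors and liver factors, Hnf4a fell by 0.45, 0.57 and 0.65 (SE 0.12) in the comparisons other than 20 weeks in AIM-KO, Ppargc1a fell by 0.56 at 12 weeks in AIM-KO, Rxra fell by 0.46 and Cebpb rose by 0.55 at 20 weeks in WT. AhR, CAR (Nr1i3), PXR (Nr1i2) and PPAR-alpha transcripts were not called.

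Of 9 genes of growth hormone signalling and sex bias, the receptor Ghr fell by 0.61 at 12 weeks in AIM-KO, 0.35 at 20 weeks in WT and 0.54 at 20 weeks in AIM-KO (SE 0.11). Stat5a rose by 0.89 and 0.95 in AIM-KO at 12 and 20 weeks, and Cish, a STAT5 target, fell by 1.79 at 20 weeks in WT. Of 11 sex-biased liver genes outside these families, a list that mixes male-biased and female-biased genes, 1, 2, 2 and 5 were higher and 4, 5, 5 and 5 lower. The male-biased Hsd3b5, a steroid dehydrogenase, fell, with log2 changes of -5.71, -8.52, -9.41 and -8.22 (SE 0.88). All 11 genes together summed to at most 11687.9 on a chow array. The larger of these falls therefore end in dim readings, where their size depends on the pseudocount and is no measured fold. The male-biased transporter Slco1a1 fell at 12 weeks in AIM-KO (-6.2), where all arrays were Xist-low, and at 20 weeks in both genotypes (-6.78 and -6.83). The female-biased Hao2 rose by 3.49 at 12 weeks in AIM-KO, 4.16 at 20 weeks in WT and 6.95 at 20 weeks in AIM-KO (SE 0.65), and Cyp17a1 rose by 3.14, 2.86, 4.91 and 4.86 (SE 0.43). All AIM-KO arrays at 20 weeks were Xist-high, so diet and Xist level cannot be told apart in the changes of these genes there.

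Targets of the same receptors outside the P450 families gave a mixed picture. Of 10 PPAR-alpha targets, 4, 5, 5 and 6 were higher and 0, 1, 0 and 0 lower. Fgf21 rose by 1.71, 2.09, 1.57 and 1.91 (SE 0.24), the pantetheinase gene Vnn1 by 1.94, 2.08, 1.78 and 2.3 (SE 0.35), and the lipid droplet gene Plin2 by 1.09, 1.24, 1.18 and 1.02 (SE 0.14), while Pdk4 rose by 3.47, 1.94 and 2.46 (SE 0.52) in the comparisons other than 12 weeks in WT. Of 8 targets of AhR, CAR and PXR, 0, 4, 1 and 1 were higher and 1 was lower in each; the carboxylesterase gene Ces2a fell (-2.32, -2.82, -2.9 and -1.93, SE 0.23), Gstm3 rose by 1.67 at 12 weeks in AIM-KO, and Tiparp, an AhR target, rose by 0.71, 0.56 and 0.59 outside 12 weeks in WT.

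Zonal and inflammatory genes are given beside them. Of 7 pericentral genes, the zone in which Cyp1a2 and Cyp2e1 lie, 1, 2, 0 and 1 were higher and 0, 1, 0 and 0 lower; glutamine synthetase (Glul) rose by 0.99, 0.82 and 0.94 (SE 0.22) outside 20 weeks in WT and Oat fell by 0.59 at 12 weeks in AIM-KO. Of 6 periportal genes, 1, 1, 1 and 0 were higher and 1, 4, 1 and 0 lower; Hal fell by 1.5, 1.69 and 1.76 (SE 0.28) outside 20 weeks in AIM-KO. Of 7 acute phase and inflammation genes, 4, 4, 4 and 2 were higher and none lower, with Lcn2 up by 3.79, 4.42, 3.82 and 3.35 (SE 0.4) and Saa2 by 3.36, 2.82, 3.29 and 2.08 (SE 0.42). Of 7 stellate cell and fibroblast markers, 3, 5, 6 and 4 were higher and none lower, with Col3a1 up by 2.34, 2.57, 2.88 and 1.51 (SE 0.25). Of 3 tested pancreas and gut markers, 1 was higher in each comparison, Fabp2, an intestinal fatty acid binding protein. The summed intensity of all 5 listed read 1256.4 to 1492.9 on WT chow arrays, 3966.3 to 4530.7 at 12 weeks and 4118.2 to 4439.9 at 20 weeks, and 1627.9 to 2115.2, 3422.6 to 3861.6 and 3647.2 to 3958.7 in AIM-KO. Of 2 tested erythroid markers, 0, 1, 1 and 1 were lower; their sum was 307.3 to 336.1 on WT chow arrays, 166.9 to 237.2 at 12 weeks and 68.6 to 162.9 at 20 weeks, and 301.9 to 400.3, 150.3 to 159 and 52.5 to 82.6 in AIM-KO. The part of these changes in the P450 results was not tested.

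The 5 members below the dim filter were Cyp2c65 (0.3 to 5.9), Cyp2j13 (1.3 to 14.5), Cyp3a16 (0.1 to 29), the pseudogene Cyp4f41-ps (4.3 to 15.5) and Cyp4x1 (0.4 to 8.3). Cyp3a16 read 6.3, 29 and 13.4 on the AIM-KO arrays and 21.9 on the Xist-high WT array at 20 weeks. No test was made of them.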

How the data were processed

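The deposited values were probe set intensities on a linear scale, made by the authors with MAS5 per the submitters' processing notes; no version is given there. Their 2% trimmed mean was 100 on each of the 18 arrays. Total RNA was labelled with biotin, per the labels' protocols. The platform annotation gave 1 gene for 34945 of 45101 probe sets, and 34741 of these took their current symbol from RefSeq's GRCm38.p6 table by gene number. The deposited intensities were turned into log2(intensity + 3.3), 3.3 being the 20th percentile of all values, which understates changes of dim genes. A probe set had to exceed the 40th percentile of an array on 3 or more arrays, and the brightest represented its gene. limma 3.58.1 (R 4.3.3) fitted 6 group means on all arrays, with a variance trend and 18.2 degrees of freedom; tests were 2-sided with Benjamini-Hochberg adjustment over 14694 genes. The procedure was tested on simulated data. No count of reads underlies an array, so depth is not defined.

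Values on every array are given for called members of the receptor-linked and sex-biased lists, for the 5 called members that rose or fell most per comparison without overlap of arrays, and for members of counts of 5 or fewer. From each other list up to 4 called genes are named. Cyp2c50 and a few others were chosen beyond this after their values were seen. The members and lists were chosen with earlier results of these data known. Alternatives were another pseudocount (13.2 or 0.825), quantile normalization, other dim filters (none, or the 60th percentile), other probe set choices, array weights, no variance trend, a fit of only the groups compared, a replicate block, terms for Xist-high arrays and for the actin 3'/5' ratio, and each array left out.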

Additional observations from a re-analysis of the deposited data

Results flagged for a closer look

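Probe sets that name several P450 genes lay outside the comparisons, and 3 of the 4 read higher on at least 1 HFD array than on every chow array. The probe set shared by Cyp3a41b and Cyp3a41a, female-biased steroid hydroxylases, reached 6611.3 on AIM-KO replicate 2 at 20 weeks, where chow arrays read 97.7 to 151.8. The one shared by Cyp4a31 and Cyp4a10, fatty acid hydroxylases, reached 6390.4 on AIM-KO replicate 3 at 20 weeks, where chow arrays read 1449.5 to 5593.7. The one shared by Cyp4f37 and Cyp4f16 reached 28.4 on AIM-KO replicate 2 at 12 weeks, where chow arrays read 10 to 19.4. No test was made of these probe sets.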

How the results depend on the processing

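Of 1856 values of called members recomputed under the alternatives, 1675 kept their direction and call, 181 kept the direction and lost the call, and 0 reversed. Counts of called members stayed within 1.5 times of those reported, apart from the following. At 12 weeks in WT (19) the count was 12 with no variance trend and 11 to 16 with 1 array left out, lowest without HFD replicate 1 and 12 without chow replicate 2 or 3. At 20 weeks in AIM-KO (20) it was 9 with the Xist term and 13 to 19 with 1 array left out, lowest without HFD replicate 2 or chow replicate 2. AIM-KO against WT (0 in each) gave 1 on chow and 12 at 20 weeks with array weights, and 1 at 20 weeks (Cyp2c50) with 4 times the pseudocount and with quantile normalization. Leaving out 1 array gave 0 to 1 on chow, 0 to 5 at 12 weeks and 0 to 15 at 20 weeks. For the difference of diet effects (0 in each) array weights gave 2 at 20 weeks, and leaving out 1 array gave 0 to 2 at 12 weeks and 0 to 10 at 20 weeks. The cause was not tested beyond the fewer arrays of those fits. The shares of all genes called in those fits are not given here.

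Replicate numbers did not pair the arrays: over 45 same-numbered pairs the correlation of deviations from group means was -0.09 to 0.23, and 3 exceeded 0.1. With the replicate number as a block, 20, 32, 28 and 20 members were called in the diet comparisons (12 weeks in WT and AIM-KO, 20 weeks in WT and AIM-KO), and Cyp2c50 was the 1 member called between genotypes at 20 weeks (1.45, adjusted p = 0.034). Probe sets near background, such as Cyp4f18 and Cyp2b19, have the least reliable values, and 3 arrays a group limit every comparison.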
